A study of Mus musculus with 18 samples.

Results

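Neurons sorted from layer 5 of wild-type (WT) mouse cortex were compared with neurons sorted from layer 6, across all genes of the RNA count table. The comparison takes the 8 libraries labelled WT layer 5 (4) and WT layer 6 (4), out of 12 RNA libraries and 18 samples in the series. Mice of both groups were wild type with no allele named in the labels, cortices were taken at postnatal day 5, and tdTomato-positive cells were collected by fluorescence-activated sorting, about 25000 per sample. The labels name neither the driver of tdTomato nor the cells it marks beyond the layer, and do not say whether replicates are separate animals, so the p-values measure the spread between these libraries, which may be technical. All 4 layer 6 libraries belong to sequencing batch A, layer 5 replicates 1 and 2 to batch B, and layer 5 replicates 3 and 4 to batch C. Layer and sequencing batch therefore cannot be told apart.

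Layer 6 of the neocortex holds corticothalamic neurons, whose axons run to the thalamus and whose identity depends on the transcription factor TBR1. Layer 5 holds subcerebral neurons, which project to brainstem and spinal cord under the control of FEZF2 and BCL11B (CTIP2), and intratelencephalic neurons, which project to cortex and striatum. In the first postnatal week these neurons extend axons and begin to form synapses, while astrocytes multiply around them and the first oligodendrocytes appear.

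Library totals were 27465597 to 39703820 counts in layer 5 and 32982957 to 54899002 in layer 6, and 14809 to 15161 and 14314 to 14768 genes, respectively, reached 10 counts. The ribosomal RNA gene Rn45s took 1.21 to 1.25% of counts in layer 5 and 0.384 to 0.723% in layer 6. Within each group the libraries fell into 2 pairs of closer libraries: replicates 1 with 3 and 2 with 4 in layer 5, and replicates 1 with 2 and 3 with 4 in layer 6. Xist, which only female cells make, was at 39.5 to 41.1 CPM in the 4 layer 5 libraries, at 0.458 and 0.448 in layer 6 replicates 1 and 2, and at 290.1 and 288 in layer 6 replicates 3 and 4. The summed Y-linked genes were at 113 to 127 CPM of the library total in layer 5, at 193 and 197 in layer 6 replicates 1 and 2, and at 0.0660 and 0.128 in layer 6 replicates 3 and 4. The layer 5 libraries thus held reads of both kinds of gene, while the layer 6 libraries held mainly 1 or the other, and the part of sex in the differences was not tested. Counts differed between libraries of a pair by a chi-square per degree of freedom of 1.33 and 1.40 in layer 5 and 3.26 and 5.18 in layer 6, against 2.97 to 3.41 and 10.9 to 19.9 across pairs, where sampling noise alone gives 1. In layer 5 each pair takes 1 library from batch B and 1 from batch C. Levels below are CPM, each gene's share of its library's counts on a common total set by TMM scaling, with the mean ± SD over 4 libraries, and differences are log2 of layer 5 over layer 6 with their standard error (SE).

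Most genes differed between the groups. Of 14927 genes tested, 12768 (85.5%) were called by edgeR's quasi-likelihood test at a Benjamini-Hochberg adjusted p under 0.05, 6293 (42.2%) of them higher and 6475 (43.4%) lower in layer 5. A test against a difference of 2-fold on the same fit called 3097 genes (20.7%), of which 2083 (14.0% of those tested) were higher and 1014 (6.79%) lower in layer 5. Differences past 2-fold thus lay more often on the layer 5 side, 67.3% of these calls against 49.3% of all calls. With the libraries of each pair summed, 2 against 2, 2965 genes were called past 2-fold, 2771 of them in common with the 3097. The median gene differed by -0.01 and the median absolute difference was 0.60. With so many calls at any size, the groups of genes below are read mainly from calls past 2-fold, set beside the 14.0% and 6.79% of all genes.

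Within layer 5, batch C was close to batch B. Each closer pair of libraries spans both batches, at a chi-square per degree of freedom of 1.40 and 1.33. The labels do not say whether a pair is the same material sequenced again, so this comparison may say little about batch effects. Batch A, which holds every library of the other layer, was not part of it, so batch effects between the layers were not tested. With the pair as a block, edgeR called 39 of 15038 genes (0.259%) and the median absolute log2 difference was 0.04. No gene was called past 2-fold there by edgeR or DESeq2, 971 genes had an unadjusted p under 0.05 at any size in edgeR, and DESeq2 called 3 genes at any size.

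The layer 6 identity gene Tbr1 was lower in layer 5. It stood at 45.7, 40.1, 43.0 and 41.4 CPM in layer 5 replicates 1 to 4 and at 169, 171, 182 and 183 in layer 6 replicates 1 to 4. The groups did not overlap, as was so for 81.2% of all genes (41.2% with layer 5 lower, 40.0% with layer 5 higher), with a log2 difference of -2.05 ± 0.043 (SE; adjusted p = 5.29e-15, edgeR). Over the corticothalamic list, Tbr1 included, 19 of 20 markers were lower in layer 5, 9 of them past 2-fold. The list's median difference was -1.06. Among the 9 were Ntsr1, a neurotensin receptor of corticothalamic neurons (26.5 ± 0.765 against 56.8 ± 2.17 CPM), and the transcription factor Nfib (-1.44). Foxp2 fell by 1.07 and Syt6 by 0.26, neither called past 2-fold. Hs3st4, a heparan sulfate sulfotransferase, was the 1 member higher in layer 5 (0.27). When libraries were scaled to the summed counts of 20 pan-neuronal genes in place of TMM, 3 members were lower past 2-fold and Syt6 turned to 0.26.

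Subplate neurons, the early-born cells under layer 6, gave a split list. Of 12 markers 4 were lower past 2-fold in layer 5, with the largest differences at Tmem163 (-3.37) and at the nuclear receptor Nr4a2 (-2.85). Tmem163 ran from 11.0 to 13.3 CPM in layer 5 and stood at 152, 154, 98.2 and 96.4 in layer 6. The layer 6 pair of replicates 1 and 2 was thus above the pair of replicates 3 and 4, and both were far above layer 5. Cplx3, a complexin of subplate cells, was the 1 member higher past 2-fold (3.63), at 4.46 to 5.56 CPM in layer 5 and 0.167, 0.149, 0.613 and 0.599 in layer 6.

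Markers of layer 5 subcerebral neurons did not follow the layer 5 label. Fezf2, the factor that specifies these neurons, stood at 19.3, 18.9, 17.8 and 18.2 CPM in layer 5 and 66.2, 65.5, 63.2 and 70.4 in layer 6, a log2 difference of -1.84. Bcl11b, its downstream factor, stood at 105, 102, 103 and 104 CPM in layer 5 and 218, 219, 261 and 250 in layer 6 (-1.19). Every layer 6 library was above every layer 5 library for both genes, which are also expressed, at lower levels, in corticothalamic neurons. Over the list 14 of 20 markers were lower in layer 5, 8 of them past 2-fold, and 4 were higher, with a median of -0.68. The list shares Fezf2, among others, with the corticothalamic list and Etv1, among others, with the intratelencephalic list. Bhlhe22 (-1.79) and Crim1 (-1.09), a marker of corticospinal neurons, were among the lower ones, and Etv1 differed little (34.6 ± 0.796 against 37.1 ± 0.658 CPM). Pcp4 was higher in layer 5 (35.0 ± 1.63 against 20.5 ± 1.70 CPM). With pan-neuronal scaling the list was closer to balance, with 8 members higher and 11 lower, 2 and 3 of them past 2-fold. Its median was then -0.16. Fezf2, Bcl11b and Crim1 kept their direction, and Etv1 turned to 0.43. In the same libraries the summed pan-neuronal markers were 1.44-fold lower and the summed astrocyte markers 5.94-fold higher in layer 5, and their part in these differences was not tested. The libraries are therefore called layer 5 and layer 6 as labelled, and not by a projection class.

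Intratelencephalic and upper-layer markers leaned the other way. Of 10 layer 5 intratelencephalic markers 5 were higher and 3 lower in layer 5, and the 2 past 2-fold, Deptor and Dkkl1, were both higher. Deptor, an inhibitor of mTOR signalling, stood at 5.28, 6.64, 5.48 and 7.03 CPM in layer 5 and 1.81, 1.73, 2.01 and 2.03 in layer 6 (1.67), and Dkkl1 was higher by 2.94. Of 20 callosal and layer 2 to 4 markers 5 were higher and 3 lower past 2-fold. Rorb, a transcription factor of layer 4 that is also made in layer 5, stood at 157, 154, 162 and 156 CPM in layer 5 and 50.6, 52.2, 54.7 and 58.6 in layer 6 (1.54), with no overlap. Cux1 (0.64) and Cux2 (0.67), upper-layer homeobox genes, were also higher, whereas the netrin receptor gene Unc5d was lower (-1.90). With pan-neuronal scaling 9 members of the upper-layer list were higher and 1 lower past 2-fold.

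**Figure D1:**
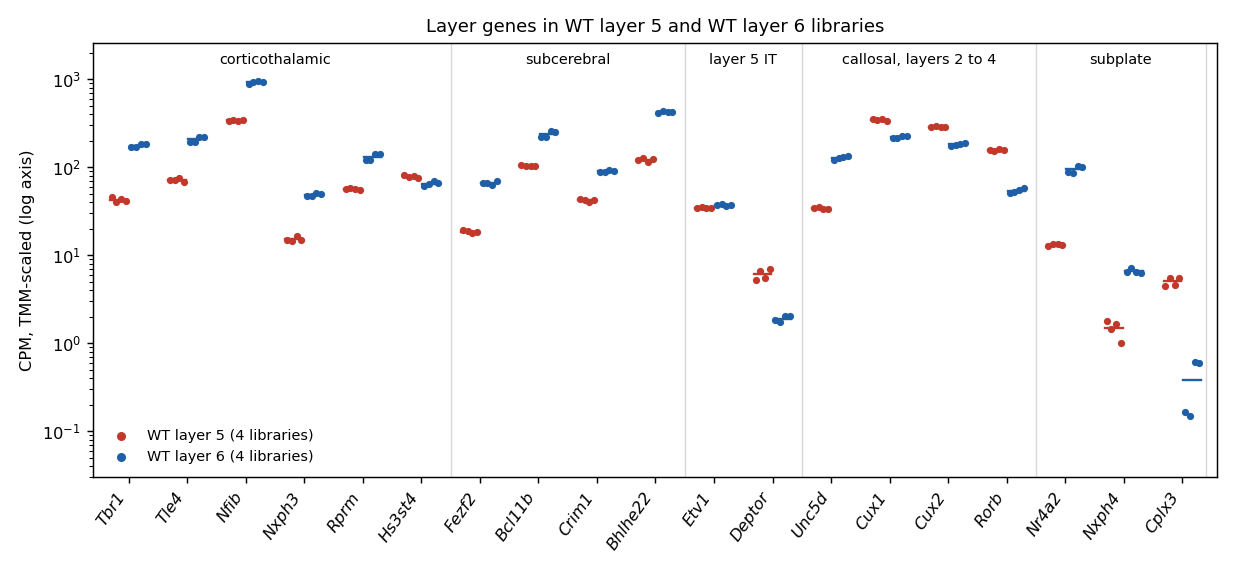
Level of layer-identity genes in each library, in CPM on a log axis. Each point is 1 of 4 libraries per group and each bar a group mean; Tbr1, Fezf2 and Bcl11b sit lower in layer 5, and Rorb, Deptor and Cplx3 sit higher.

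With TMM scaling, markers of other neurons were lower in layer 5 for Cajal-Retzius cells and for most interneuron genes. All 10 Cajal-Retzius markers were lower, 5 past 2-fold, among them the transcription factors Trp73 (-1.25) and Lhx5 (-2.93), and DESeq2 as well as pan-neuronal scaling called 3 past 2-fold. Reln, the secreted glycoprotein of these cells, stood at 410 ± 3.29 CPM in layer 5 and 547 ± 39.1 in layer 6, a difference of -0.42 that turned to 0.11 with pan-neuronal scaling. Of 19 interneuron markers tested 12 were lower, 5 of them past 2-fold, including Lhx6 (-1.23), a factor of interneurons from the medial ganglionic eminence, and the neuropeptide gene Npy (-1.72). Vip was higher (2.87 ± 0.484 against 0.865 ± 0.236 CPM). Pvalb stood at 0.422 ± 0.122 CPM in layer 5 and had no read in any layer 6 library, where 3 counts are 0.0544 to 0.0897 CPM. The genes for GABA synthesis (-0.26 and 0.08, the latter not called) and for its vesicular transporter (-0.29) differed by less. With pan-neuronal scaling 9 interneuron markers were higher and 9 lower, only 1 of them lower past 2-fold. The list's median was then -0.15, against -0.67 with TMM. Of 9 striatal projection neuron markers tested 5 were higher past 2-fold in layer 5, including the dopamine receptor gene Drd2 (2.21), which was at 1.66 ± 0.270 CPM there. At any size 7 were higher and 1 lower. The lower one, the most abundant of the list, stood at 127 ± 1.47 CPM in layer 5 and 159 ± 3.69 in layer 6 (-0.32).

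Most glial marker lists were higher in layer 5. The summed level of 26 astrocyte markers was 12696 ± 29.8 CPM in layer 5 and 2137 ± 111 in layer 6, 5.94-fold apart. Of these 26 markers 25 were higher in layer 5, 21 of them past 2-fold, with a median difference of 2.82. Aqp4, the water channel of astrocyte endfeet, stood at 390, 395, 403 and 400 CPM in layer 5 and 13.1, 10.5, 10.8 and 10.1 in layer 6 (5.16 ± 0.06, SE). Gpr37l1, an astrocyte receptor gene, stood at 136, 141, 131 and 136 CPM in layer 5 and 0.75, 0.837, 0.657 and 0.998 in layer 6, the highest fold change at a mean of at least 5 CPM (7.37). No layer 6 library came near layer 5 for either gene. Slc1a2, the main glutamate transporter of astrocytes (3.06), Glul, which encodes glutamine synthetase (2.83), and Apoe, a lipid carrier (3.15), lay near the list's median.

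The astrocyte markers did not move by a common factor. Gja1, the connexin 43 gene, differed by 0.32, and Gjb6, the connexin 30 gene, stood at 10.8 ± 0.230 CPM in layer 5 and 12.0 ± 0.569 in layer 6. Its difference of -0.14 (adjusted p = 0.0439, edgeR) lost its call when any single layer 5 library was left out and turned to 0.38 with pan-neuronal scaling. At the other end S100b (27.9 ± 1.71 against 0.769 ± 0.155 CPM) and Slc25a18, a mitochondrial carrier gene (102 ± 1.73 against 1.31 ± 0.498 CPM), were nearly missing from layer 6.

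Oligodendrocyte lineage genes were also higher in layer 5. Of 14 precursor markers 12 were higher, 10 of them past 2-fold, and the sum of the 14 was 1276 ± 10.9 against 699 ± 10.9 CPM. The other 2 were lower, neither called past 2-fold, and 1 of them stood at 141 ± 1.59 against 284 ± 5.55 CPM (-1.01). Pdgfra, the growth factor receptor of precursors, differed by 1.11, Olig1 by 2.41 and Gpr17, a receptor of cells committed to differentiate, by 2.61. Of 14 myelinating markers tested 12 were higher past 2-fold, with a sum of 583 ± 6.79 against 103 ± 3.22 CPM. Cnp (3.82) and Mbp (158 ± 7.30 against 37.0 ± 1.23 CPM), which encode myelin proteins, were among them. Enpp6, a gene of newly formed oligodendrocytes, stood at 10.1, 8.89, 10.8 and 8.39 CPM in layer 5, against at most 0.0417 in layer 6. The claudin gene Cldn11 (13.6 ± 0.871 against 35.5 ± 3.76 CPM) and Ermn (0.793 ± 0.220 against 2.72 ± 0.142 CPM) went the other way, both past 2-fold.

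Microglial and vascular genes followed. All 18 microglial markers were higher in layer 5, 16 of them past 2-fold, with a median of 1.78. Csf1r, the receptor that microglia need to survive, differed by 1.46, and the fractalkine receptor gene Cx3cr1 by 2.02. Of 16 endothelial markers 6 were higher past 2-fold, such as the tight junction gene Cldn5 (1.35), and of 12 pericyte and smooth muscle markers 7 were, such as Notch3 (2.12). With pan-neuronal scaling these counts became 15 and 11. The 12 fibroblast and meningeal markers had 1 member past 2-fold on each side.

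Radial glia and cell division genes behaved differently from glial markers. Of 22 members 2 were higher and 1 lower past 2-fold. Fabp7, a lipid-binding protein of radial glia and young astrocytes, was higher (1.95), and Mki67, a proliferation marker, was lower (-1.25). Top2a stood at 117 ± 1.74 against 118 ± 2.93 CPM and Nes, the radial glia filament gene, at 270 ± 6.04 against 261 ± 5.63 CPM, and neither was called by edgeR. DESeq2 called Nes higher in layer 5 by 0.07 (adjusted p = 0.0188), and with only genes at a mean of at least 5 CPM both were called higher.

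Choroid plexus and ependyma separated from each other. Ttr, the transthyretin gene of the choroid plexus, was at 7.25 to 8.13 CPM in layer 5 and at 194, 198, 567 and 567 in layer 6. Every layer 6 library was above every layer 5 library, and layer 6 replicates 3 and 4 were above replicates 1 and 2. The ciliary genes Ccdc153 (2.15 ± 0.255 CPM) and Tmem212 (1.69 ± 0.161 CPM) were instead found in layer 5, with no read of Ccdc153 in layer 6.

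**Figure D2:**
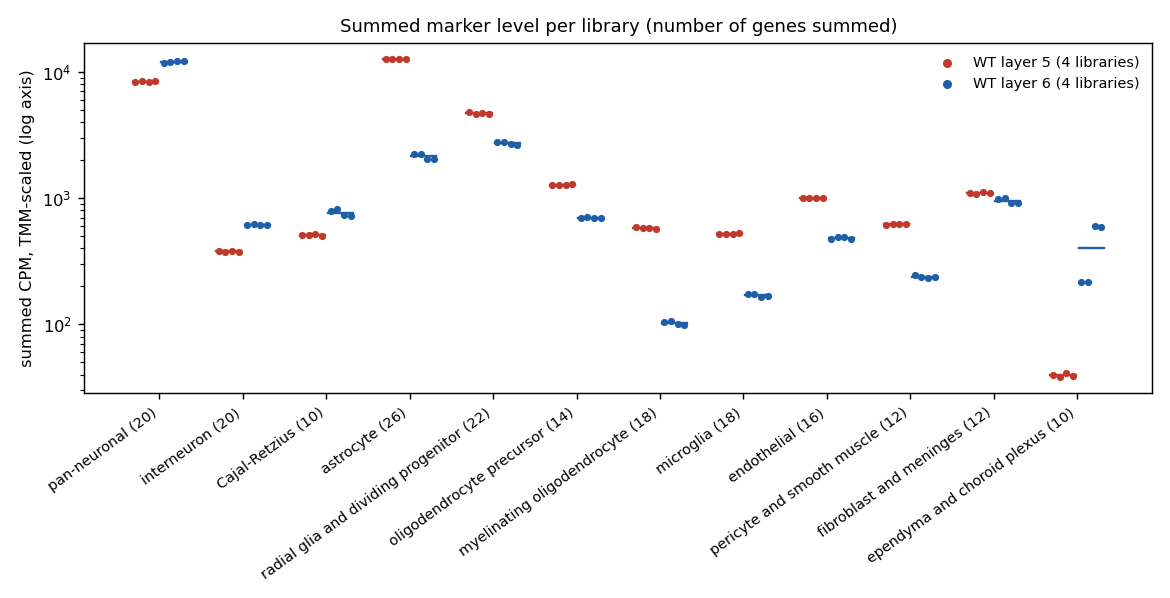
Summed level of cell type marker lists in each library, in CPM on a log axis, with 1 point per library (4 per group). Astrocyte, oligodendrocyte and microglial sums are higher in layer 5, and the pan-neuronal, interneuron, Cajal-Retzius and joint ependyma and choroid plexus sums are higher in layer 6. Of the 406 CPM of the joint sum in layer 6, Ttr makes up 381, and 6 of the list's 10 members are higher in layer 5. Bars are group means.

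Pan-neuronal genes were lower in sum in layer 5, 8369 ± 53.3 against 12050 ± 240 CPM. In bulk samples such as these, fewer cells of a type and less RNA per cell cannot be told apart. The 20 members did not move together: 12 were lower and 7 higher, and 4 were lower past 2-fold. Nsg2, a vesicle protein of young neurons (-1.99), and Elavl2, an RNA-binding protein (-1.26), were lower past 2-fold, and Tubb3, the neuronal tubulin, was lower by less (-0.91). Map2, the dendritic microtubule protein, was higher in layer 5 (0.37), and Snap25, a synaptic membrane fusion gene, was not called (196 ± 2.05 against 190 ± 3.03 CPM), although DESeq2 called it higher by 0.06 (adjusted p = 0.018). Every neuronal result here stands beside the 5.94-fold higher astrocyte sum of layer 5, whose part in it was not tested.

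Genes of newborn neurons were lower in layer 5. Of 27 tested 25 were lower, 11 past 2-fold, with a median of -1.01. Neurog2, the proneural factor of cortical progenitors, stood at 0.587, 0.994, 0.648 and 0.847 CPM in layer 5 and 23.2, 27.2, 29.4 and 27.9 in layer 6 (-5.14). Sox11, a factor of immature neurons, stood at 472, 460, 474 and 459 CPM in layer 5 and 1991, 2113, 2258 and 2268 in layer 6 (-2.21). The groups did not overlap for either gene, and Eomes (-3.37), a factor of intermediate progenitors, and Neurod6 (-2.43) were lower as well. Dcx, the microtubule protein of migrating neurons, differed by only -0.23, which turned to 0.30 with pan-neuronal scaling. Gap43, a growth cone protein, was the 1 member higher in layer 5 (0.21). With that scaling 9 members were lower past 2-fold.

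Genes of maturing neurons were mostly higher in layer 5. Of 28 members 22 were higher, 8 past 2-fold, and the median was 0.62, also with Pvalb, a member without reads in layer 6, set to 3 counts there. Camk2a, a kinase of mature excitatory synapses, stood at 337, 290, 337 and 287 CPM in layer 5 and 28.3, 34.4, 21.5 and 19.5 in layer 6 (3.61). Layer 5 replicates 1 and 3 were above replicates 2 and 4, and all 4 were far above layer 6. Cplx2, which controls transmitter release, was also higher (2.08). Syp, the synaptic vesicle gene synaptophysin, was the 1 member lower past 2-fold (-1.15), and the neurofilament gene Nefm was lower by 0.94. With pan-neuronal scaling 16 members were higher past 2-fold.

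**Figure D3:**
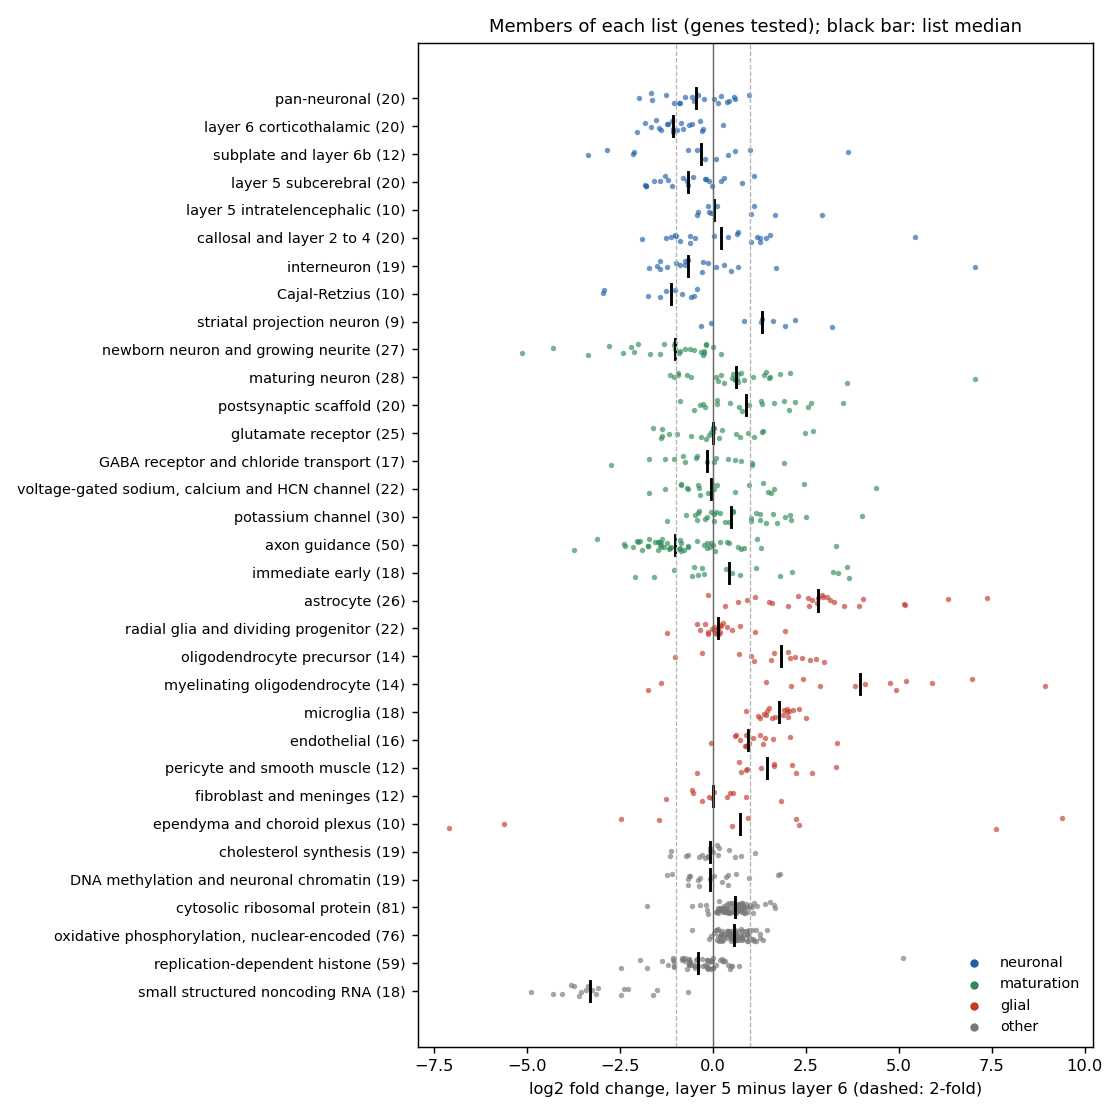
Log2 difference, layer 5 minus layer 6, of every tested member of the gene lists, 1 point per gene, with the list median as a bar; Pvalb and Ccdc153, without reads in layer 6, are at their fitted values, which are not bounds. Astrocyte and microglial members sit almost all above 0, newborn neuron and axon guidance members mostly below 0, and postsynaptic scaffold members mostly above 0.

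Postsynaptic scaffold genes were higher in layer 5. Of 20 members 15 were higher, 9 past 2-fold, and 5 were lower at any size. Shank1, a scaffold of excitatory synapses, stood at 552, 527, 543 and 521 CPM in layer 5 and 45.6, 45.9, 46.8 and 50.0 in layer 6 (3.51). Its relatives Shank2 (2.55) and Shank3 (2.63) were higher too, as were Dlg4, which encodes PSD-95 (1.33), Dlgap3 (1.92) and Homer2 (2.20). The sum of the list was 4518 ± 84.4 against 2193 ± 23.5 CPM.

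Receptor genes at the same synapses were divided. Of 25 glutamate receptor genes 5 were higher and 5 lower past 2-fold. All 4 AMPA receptor subunit genes were lower in layer 5, by 1.40 for Gria1, 1.61 for Gria2, 1.18 for Gria3 and 1.36 for Gria4 on the log2 scale. Gria2, the subunit that sets calcium permeability, was the one with the largest difference. Grin2a, the NMDA receptor subunit of later stages, was higher and stood at 32.0, 31.8, 32.9 and 32.2 CPM in layer 5 and 5.27, 5.56, 4.49 and 4.74 in layer 6 (2.69). Grin2b, the early subunit, was higher by 0.72. Grm3, a metabotropic receptor gene that astrocytes also express, was among the higher ones (1.11). With pan-neuronal scaling 8 members were higher and 1 lower past 2-fold.

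Of 17 genes for GABA receptors and chloride transport 1 was higher and 3 lower past 2-fold. Gabra2 (-2.74) and Gabrb2 (-1.28), subunits of the GABA-A receptor, were among the lower ones, and Gabrg1, a subunit that glia also make, was higher (1.90). Slc12a5, the chloride exporter of mature neurons, was at 108 ± 1.49 against 52.1 ± 3.02 CPM, and Slc12a2, the chloride importer of immature neurons, at 56.3 ± 0.418 against 75.7 ± 3.61 CPM.

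Pairs of an early and a late gene were set against each other within each library, which takes library scaling out of the value. The log2 ratio of Grin2a to Grin2b ran from -3.04 to -2.95 in layer 5 and from -5.14 to -4.82 in layer 6. That of Slc12a5 to Slc12a2 ran from 0.91 to 0.97 and from -0.67 to -0.36. The later gene held the larger share in layer 5 in both. The ratio of Nefh to Gap43 differed by 1.36, of Scn1a to Scn3a by 0.74 and of Map2 to Dcx by 0.60. In each of these 5 pairs the 4 layer 5 libraries lay above the 4 layer 6 libraries. These ratios are on raw counts, so gene length affects their level but not their difference between groups.

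**Figure D4:**
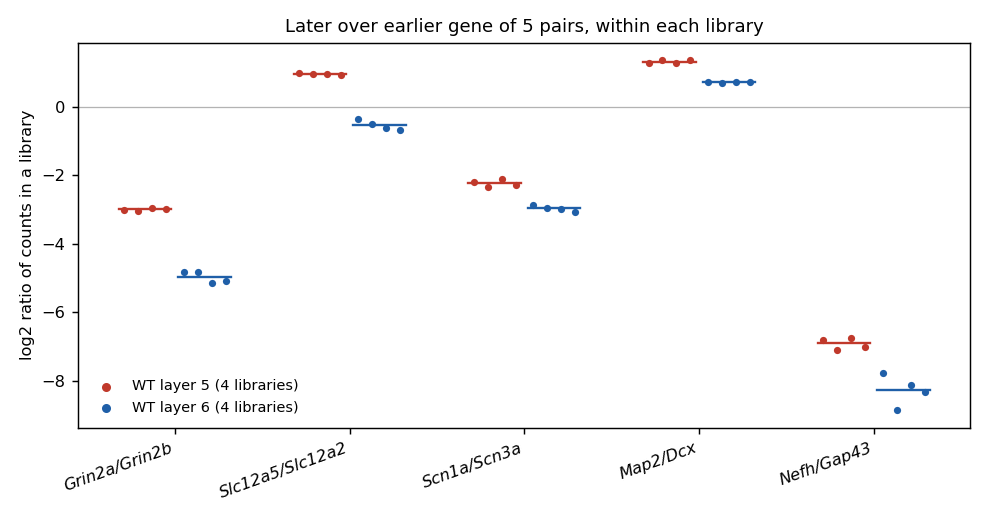
Log2 ratio of a later to an earlier gene within each library for 5 pairs, 1 point per library. The 4 layer 5 libraries sit above the 4 layer 6 libraries in every pair.

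Ion channel genes differed in part. Of 30 potassium channel genes 11 were higher and 1 lower past 2-fold, with a median of 0.49. Kcnj6, an inward rectifier opened by G proteins (4.01), Kcnh1 (51.6 ± 0.956 against 9.10 ± 1.46 CPM) and Kcna2, an axonal channel (1.72), were higher. Of 22 sodium, calcium and HCN channel genes 6 were higher and 2 lower past 2-fold. Scn8a, the sodium channel of mature axon initial segments (1.34), Scn4b (4.39), Cacna1i (2.45), Cacna1a (1.65) and Hcn2 (1.57) were higher, and Scn3b, a subunit of early stages, was lower (-1.70).

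Axon guidance genes were mostly lower in layer 5. Of 50 members 37 were lower in layer 5, 24 of them past 2-fold, and 3 were higher past 2-fold. The sum was 4419 ± 16.3 against 10674 ± 103 CPM, 2.42-fold lower in layer 5. Cntn2, an adhesion molecule of growing axons also known as TAG-1, stood at 77.4, 73.5, 74.9 and 74.6 CPM in layer 5 and 1004, 1027, 989 and 991 in layer 6 (-3.74). The receptor genes Nrp1 (-2.35), Robo1 (-1.97), Dcc (-1.73) and Epha3 (-2.40), and the ligand gene Sema3c (-3.12), were lower as well, with no overlap between groups. Robo3, a receptor of commissural axons, was the exception with the largest difference (3.30), beside Plxnd1 and Ntn1. With pan-neuronal scaling 12 members were lower past 2-fold.

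Immediate early genes, which neuronal activity and cell handling both induce, were mixed. Of 18 members 6 were higher past 2-fold, among them Fos (3.65), Npas4 (3.38) and Egr4 (3.23), and Dusp1 (-2.09) and Nr4a3 (-1.59) were lower. Levels were low in layer 6, with Fos at 1.23 ± 0.388 CPM (15.7 ± 0.527 in layer 5) and Egr4 at 0.153 to 0.396. With a minimum mean of 5 CPM, 3 members were higher past 2-fold. Of 12 genes induced by tissue dissociation 1 was higher and 1 lower past 2-fold, which were Fos and Dusp1 again. At any size 4 of the 12 were higher and 5 lower. The most abundant of them was lower, at 1050 ± 32.0 CPM in layer 5 and 1820 ± 334 in layer 6 (-0.79). Of 19 genes for DNA methylation and neuronal chromatin 2 were higher past 2-fold: Dnmt3a, the methyltransferase active in young neurons (1.80), and the remodeller gene Chd5 (1.74). Hdac2 was 1 of 2 lower ones (-1.25). The 19 cholesterol synthesis genes tested had 1 member higher and 2 lower past 2-fold, a smaller share on the higher side than that of all genes.

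Genes for the translation and respiration machinery were shifted by small amounts in a common direction. Of 81 cytosolic ribosomal protein genes tested 75 were higher in layer 5, against 42.2% of all genes, but only 7 past 2-fold, with a median of 0.59. Rpsa, a protein of the small ribosomal subunit, had one of the larger differences (1.64), in a family whose many processed pseudogenes can share its reads. Of 76 nuclear genes for oxidative phosphorylation 72 were higher, 7 past 2-fold, with a median of 0.58. Of 59 histone genes tested 35 were lower and 9 higher. With pan-neuronal scaling 45 ribosomal and 40 respiratory genes were past 2-fold, and the median of the histone genes turned to 0.13.

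Small structured noncoding RNAs were far lower in layer 5. This list of names was added after their values had been seen, and its count is a description only. All 18 of its 120 members that could be tested were lower, 16 of them past 2-fold, and the sum was 2496 ± 76.3 against 10679 ± 748 CPM, 4.28-fold lower in layer 5. Rmrp, the RNA of the mitochondrial RNA processing ribonuclease, stood at 421, 432, 410 and 434 CPM in layer 5 and 3483, 4047, 4747 and 5060 in layer 6 (-3.35). Rpph1, the RNA of ribonuclease P, stood at 2020 ± 67.3 against 6124 ± 273 CPM, and Terc, the telomerase RNA, fell by 4.30. The share of Rn45s, another RNA that is not messenger RNA, differed in the opposite direction, and the part of these RNAs in the other results was not tested.

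The 15 highest and the 15 lowest fold changes at a mean of at least 5 CPM, without predicted genes, repeat these groups. On the higher side were the astrocyte genes Gpr37l1, Slc25a18, Aqp4, Timp4, S100b, Itih3 and Kcnj16 and the oligodendrocyte genes Mag and Bcas1. Car8, a carbonic anhydrase-related gene, was also there, at 190 ± 4.58 against 5.32 ± 0.315 CPM, as were Fgf1 (34.9 ± 1.08 against 0.546 ± 0.153 CPM) and Hapln1 (23.3 ± 0.768 against 0.669 ± 0.202 CPM), a link protein of the extracellular matrix. On the lower side were Ttr, Neurog2, Igfbpl1, Cntn2, Tmem163 and 4 noncoding RNAs. The neurotensin gene Nts stood at 4.19 ± 0.346 against 106 ± 8.15 CPM, the glypican gene Gpc2 at 15.2 ± 0.453 against 238 ± 12.4 CPM and the follistatin gene Fst at 0.826 ± 0.183 against 12.1 ± 0.602 CPM. Among abundant genes Adcy1, the calcium-activated adenylyl cyclase (3242 ± 21.6 against 657 ± 17.2 CPM), and Apc, a regulator of WNT signalling and microtubules (3035 ± 10.5 against 793 ± 26.0 CPM), were higher in layer 5. These last 2 were chosen after their values were seen.

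Gene length went with the differences only weakly. Across 14872 of the 14927 genes whose span was found in the RefSeq annotation (GRCm38.p6), the rank correlation of genomic span with the log2 difference was 0.07, over genes that are not independent. Of the 952 genes spanning over 200 kb, 19.9% were higher past 2-fold, and of the 1853 spanning under 5 kb, 12.2% were higher and 10.3% lower.

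The choice of scaling set the zero point. Scaling to the pan-neuronal list moved the median of all genes by 0.53 on the log2 scale, and 77.6% of called genes were then higher in layer 5, with 3970 higher and 314 lower past 2-fold. Under that scaling the medians of the corticothalamic (-0.54), Cajal-Retzius (-0.61), newborn neuron (-0.48) and axon guidance lists stayed below 0, while that of the subplate list turned to 0.20. The pan-neuronal list came to 0.07, but its own summed counts set this scaling, so a value near 0 was fixed in advance. Scaling by library totals moved the median of all genes by -0.03 and relative log expression factors by 0.02.

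**Figure D5:**
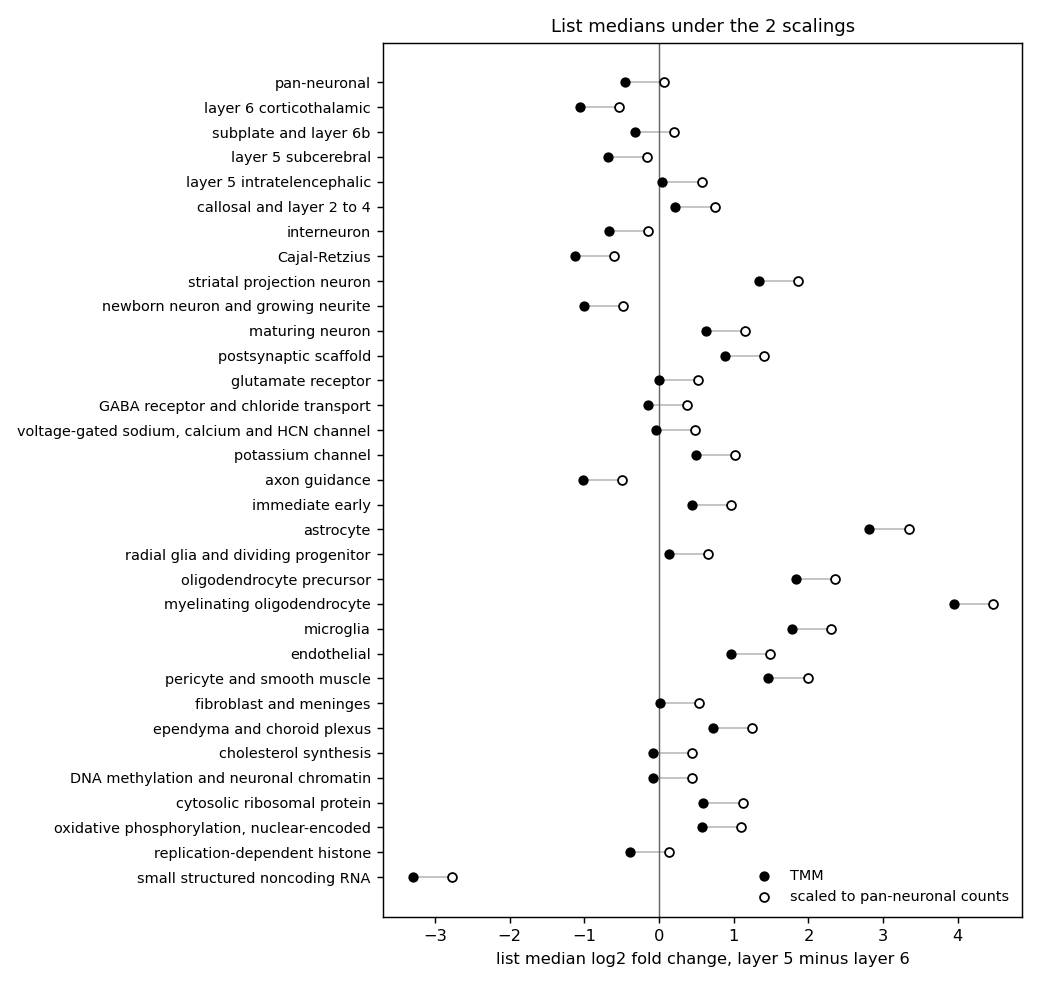
Median log2 difference, layer 5 minus layer 6, of the tested members of each gene list under TMM (filled points) and pan-neuronal scaling (open points). Pan-neuronal scaling moves every list up by about the same amount, and the astrocyte, corticothalamic, newborn neuron and axon guidance lists keep their side of 0.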

How the data were processed

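RNA was sequenced from tdTomato-positive cells sorted from mouse cortex at postnatal day 5; per the labels' protocols, ribosome-depleted, stranded total RNA libraries were made. Whole-number read counts for 24015 genes were deposited by the authors; per the submitters' processing notes STAR 2.5.2b, HTSeq and bedtools were used in the series, and for the counting no annotation or strand setting is named in the labels or file headers, so reads of overlapping genes may not be told apart. The 8 columns of WT layer 5 and WT layer 6 were grouped by their labels.

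The quasi-likelihood F-test of edgeR 4.0.16 was run under R 4.3.3 (TMM, filterByExpr by group, Benjamini-Hochberg adjusted p under 0.05) and against 2-fold with glmTreat on the same fit. CPM are on TMM-scaled totals. Totals of 27465597 to 54899002 counts set the precision. On simulated counts of 14927 genes for this comparison, 50 genes were changed at each of 1.5-, 2-, 4- and 8-fold. Of those changed 4-fold 98% were called past 2-fold, and of 14632 unchanged genes none was called past 2-fold and 15 at any size. The simulated libraries were drawn independently, without the close pairs of the data, and far fewer genes changed than were called there. These rates may therefore not hold for the data.

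Alternatives were DESeq2 1.42.0, other scalings, filters and subsets of libraries. The members and lists were chosen with earlier results of these data known, so lists are described by counts and medians with no test. Genes named were Tbr1, the 15 highest and 15 lowest fold changes, the first 6 and the 4 most abundant members of each list, the genes of the early and late pairs and members past 2-fold against their list's direction; not all are printed, some are not reported here, and 26 of the 139 genes in the report lie outside this rule and were chosen after their values were seen. The list of small structured noncoding RNAs was added after values were seen. A second, normalized table, the peak lists and the Tbr1 null libraries were not used for the results above, except that the null libraries entered 1 alternative fit.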

Additional observations from a re-analysis of the deposited data

Results flagged for a closer look

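Of 292 groups of 4 libraries (the genes and summed lists named in the text, in each layer), 13 held 1 library far from the other 3, at a gap over 0.83 of the group's range (4.45%; chance flags about 1 in 20). In layer 6 replicate 2 the high values were 35.5 CPM for Cacna1a (the other 3 at 31.2 to 31.8), 165 for Dnmt3a (148 to 151), 38.1 for Etv1 (36.7 to 36.8) and 0.0299 for Tmem212, which had no read in the other 3. In layer 6 replicate 4 they were 60.0 CPM for Ntsr1 (55.4 to 55.8) and 0.998 for S100b (0.667 to 0.722). In layer 6 replicate 1 Egr4 was high at 0.396 CPM (0.153 to 0.179), and Gria4 was low at 75.3 (80.5 to 81.5), as was Scn3a at 148.5 (151 to 152). In layer 5 replicate 2 Plxnd1 was low at 236 CPM (244 to 245), Xist at 39.5 (40.9 to 41.1), and Scn4b was high at 2.31 (1.73 to 1.81). In layer 5 replicate 1 Trp73 was high at 6.66 CPM (5.82 to 5.93).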

How the results depend on the processing

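Left out 1 at a time, the libraries gave 12520 to 12850 genes called and 2984 to 3196 past 2-fold. Layer 5 batch B alone gave 2875 past 2-fold and batch C alone 2817. The replicate numbers did not pair the samples (correlations of deviations from -0.03 to -0.01), and with the number as a block 12675 genes were called and 3054 past 2-fold. Scaled to the pan-neuronal list, 9967 genes were higher and 2880 lower, 3970 and 314 past 2-fold. Past 2-fold the lower members then numbered 3 in each of the corticothalamic, subcerebral, Cajal-Retzius and histone lists, 12 in axon guidance, and 1 in each of the callosal, interneuron and glutamate receptor lists. The higher ones numbered 9 callosal, 16 maturing neuron, 8 glutamate receptor, 6 axon guidance, 15 endothelial, 11 pericyte, 45 ribosomal and 40 respiratory genes. Single genes that then changed sign were Dcx (0.30), Etv1 (0.43), Gjb6 (0.38), Reln (0.11), Scn1a (0.40), Slc12a2 (0.10), Syt6 (0.26) and Top2a (0.51). A minimum mean of 5 CPM left fewer genes to test, with 1940 past 2-fold (1309 higher, 631 lower). The lower members were then 2 Cajal-Retzius, 1 choroid plexus and 7 noncoding RNAs. The higher ones were 3 striatal, 5 maturing neuron, 3 immediate early, 6 myelinating, 0 ependymal (those members were not tested) and 11 respiratory genes. Etv1 was at 0.0080 and Top2a at 0.093 there, and Top2a was at 0.0045 by DESeq2 and 0.0048 with relative log expression factors. DESeq2 called 3 Cajal-Retzius markers past 2-fold. With layer 6 replicates 3 and 4 only, an alternative chosen after seeing the data, 5 callosal and 3 Cajal-Retzius markers were lower past 2-fold. With layer 6 replicates 1 and 2 only, chosen likewise, Xist was at 6.46. Between batches within layer 5, edgeR without the pair block called 0 genes (90 at an unadjusted p under 0.05) and DESeq2 called 3. Snap25 and Nes gained a call with DESeq2 (0.06 and 0.07), relative log expression factors (0.06 and 0.07), pan-neuronal scaling (0.57 and 0.57) and the 5 CPM minimum (0.15 and 0.16). That minimum also changed the TMM scaling and moved the genes tested in both by a median of 0.11, and the cause of the other shifts was not tested. Batch, layer and glial content cannot be told apart.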

Other observations

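Of 3 blood genes tested, of 9 listed, Slc4a1, the anion exchanger of red cells, was higher past 2-fold in layer 5 and Alas2, a heme synthesis gene, was higher by less. Of 7 sex-linked genes tested the X-linked Kdm6a and Eif2s3x were lower in layer 5, neither past 2-fold. The summed Y-linked genes and Xist had both been found in every layer 5 library, and only 1 of them at over 1 CPM in each layer 6 library.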
